A study of Sus scrofa with 3 samples.

Results

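Expression of 10 enzyme genes named for the conversion of steroid hormones was followed in pig kidney: the hydroxysteroid dehydrogenases HSD17B2, HSD17B4, HSD17B6, HSD17B8, HSD17B10, HSD17B11, HSD17B12, HSD17B14 and HSD11B2, and the 5-alpha-reductase SRD5A1. They were taken by symbol from a count table of 34570 genes. All 10 were in the table and all 10 passed the filter on low counts, which kept 15472 genes for comparison. The tissue came from Chinese Wuzhishan pigs of 6 to 7 months, and the diet of every group was rich in fat and cholesterol. The 3 groups were castrated males with testosterone replacement (CMT), castrated males without it (CM) and intact males (IM). Each group is 1 library made from the mixed RNA of its 3 animals, so the 9 pigs give 3 libraries and no replicate of any group. That follows the sample descriptions and the single count column per group; the series' design text speaks of triplicates, and this conflict was not settled.

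A 17-beta-hydroxysteroid dehydrogenase moves a steroid between its hydroxyl form, which binds the receptor strongly, and its keto form, which binds weakly; testosterone and estradiol are such hydroxyl forms. Many members of this enzyme family act mainly on other substrates, among them the fatty acyl chains of peroxisomes, mitochondria and the endoplasmic reticulum. Steroid 5-alpha-reductases turn testosterone into the more potent dihydrotestosterone, and HSD11B2 turns cortisol into inactive cortisone, which in the kidney keeps cortisol from the mineralocorticoid receptor. All members other than SRD5A1 belong to the short-chain dehydrogenases and reductases.

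The deposited counts summed to 13601475 in CMT, 18503537 in CM and 16459771 in IM. Levels are given as CPM, counts per 1000000 of a library size adjusted by TMM, a scaling that lines up the bulk of genes between libraries. The exact 95% intervals beside levels and folds cover counting error only. A call, higher or lower, needs the whole interval of the fold to lie beyond 2-fold. No spread between pigs could be estimated, no p-value is given, and every difference is one between pools. Proximal tubule markers summed to 22202 CPM in CMT, 22354 in CM and 21972 in IM, and 13 of 13 compared markers were uncalled in each comparison. In pooled tissue, fewer cells of a type and less RNA per cell cannot be told apart.

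Between CM and IM 3 of the 10 genes were called, against 2.71% of all compared genes. The 10 genes were chosen with earlier results of these data known, so such shares only describe the list. HSD17B2 was the 1 called higher, against 1.2% of all genes called higher, and HSD17B4 and HSD17B6 were the 2 called lower, against 1.52%. Between CMT and CM the calls on these genes ran the other way: HSD17B4 and HSD17B6 were the 2 higher (1.84% of all genes) and HSD17B2 the 1 lower (1.11%), or 3 of 10 beside 2.95% of all genes in either direction. These comparisons share the CM pool, and each also shares a pool with CMT against IM, so none is independent of the others. Between CMT and IM, HSD17B6 was the 1 higher (0.905%), and 0 members were lower (0.595%), with 1.5% of all genes called in either direction. With shares this low over all genes, 0 calls in a short gene list, as in some lists below, is near the overall share. The median log2 fold of the 10 genes was 0.16 for CM over IM, 0.02 for CMT over CM and 0.22 for CMT over IM. Over all compared genes the medians were -0.0063, -0.0043 and -0.013 in the same order. Scaled by total counts, the median of the 10 genes for CMT over CM was -0.046.

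**Figure D1:**
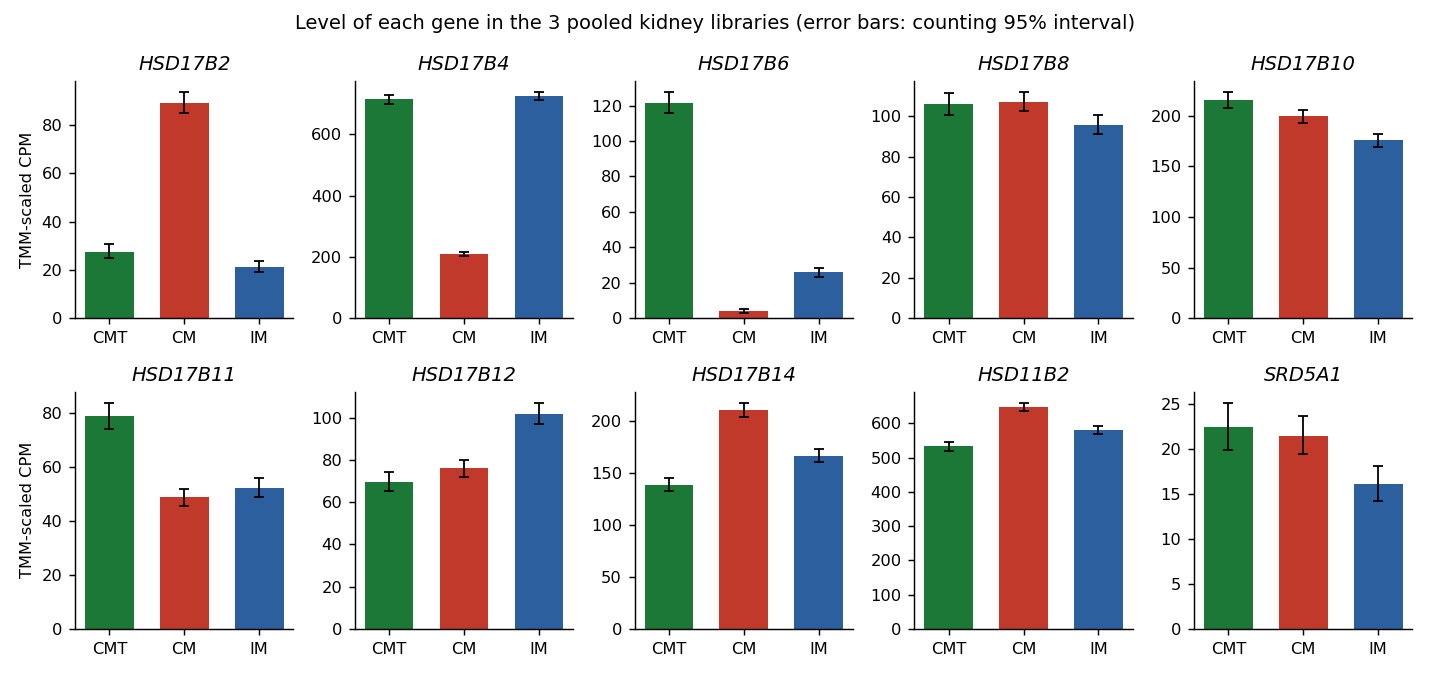
Level of each of the 10 genes in TMM-scaled CPM (vertical axes from 0, a separate scale for each gene) in the CMT, CM and IM pools, 1 library each; error bars are exact 95% Poisson intervals of the count. HSD17B2 is high in CM alone, HSD17B4 is low in CM alone, and HSD17B6 has 3 separate levels, 121, 4.02 and 25.8 CPM in CMT, CM and IM.

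HSD17B2 oxidises testosterone to androstenedione and estradiol to estrone, and so lowers the amount of active hormone in a cell. It gave 365 counts in CMT, 1686 in CM and 351 in IM. These correspond to 27.6 CPM (24.8 to 30.6), 89.2 CPM (85.0 to 93.6) and 21.2 CPM (19.0 to 23.5) in CMT, CM and IM. The CM pool was high, and the intervals of CMT and IM did not overlap although their levels were close. HSD17B2 was 4.21-fold higher in CM than in IM (3.75 to 4.73), the 78th highest log2 fold of 15472 genes. In CMT it was lower than in CM by 3.23-fold (2.89 to 3.63). CMT stood at 1.30-fold of IM (1.12 to 1.51), which is not a call.

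HSD17B6 in humans acts on 3-alpha-hydroxysteroids and oxidises androstanediol back to dihydrotestosterone, a route that refills the pool of active androgen; it also takes retinol-type substrates. It gave 1607 counts in CMT, 76 in CM and 428 in IM, or 121 CPM (116 to 127.5), 4.02 CPM (3.17 to 5.03) and 25.8 CPM (23.5 to 28.4). The 3 intervals were far from overlapping, with CM lowest and CMT highest. The gene was 6.43-fold lower in CM than in IM (5.03 to 8.32), with the 63rd lowest log2 fold. In CMT it was 30.2-fold higher than in CM (24.0 to 38.5), the 15th highest log2 fold of all compared genes. It was also the 1 member whose level in CMT left that of IM by more than the rule: 4.70-fold higher (4.22 to 5.24), rank 42 from the top.

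HSD17B4 is the D-bifunctional protein of peroxisomes, which hydrates and dehydrogenates very long and branched acyl chains and bile acid precursors, and which also oxidises estradiol. It gave 9458 counts in CMT, 3978 in CM and 11993 in IM. In CPM this is 715 (700.3 to 729), 210.4 (204 to 217) and 724 (711 to 737) for CMT, CM and IM. CM was low, while the intervals of CMT and IM overlapped. HSD17B4 was 3.44-fold lower in CM than in IM (3.32 to 3.57) with the 146th lowest log2 fold, and 3.40-fold higher in CMT than in CM (3.27 to 3.52). CMT was at 0.987-fold of IM (0.960 to 1.01).

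**Figure D2:**
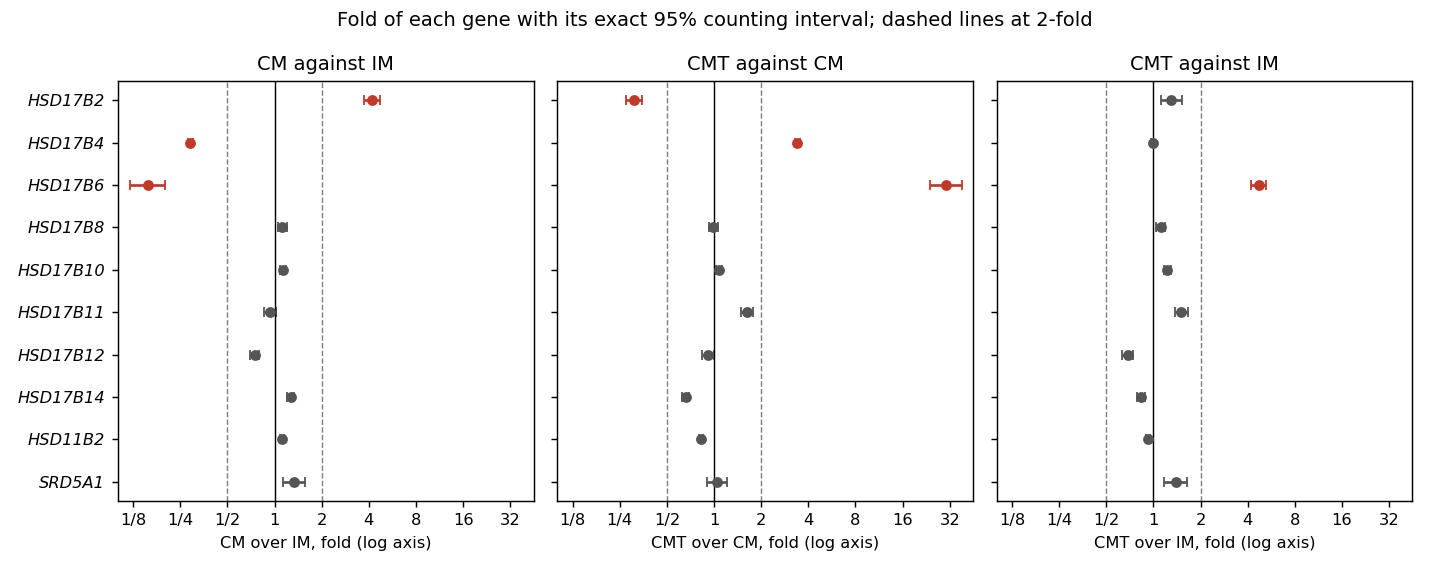
Fold of each gene (CM over IM, CMT over CM, CMT over IM; horizontal log axes) with its exact 95% counting interval; dashed lines mark 2-fold and red marks a call. Only HSD17B2, HSD17B4 and HSD17B6 pass the dashed lines with their whole interval in the first 2 panels, and HSD17B6 alone in the third, at 4.70-fold.

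The ratio of reads of one gene to reads of another within a library does not depend on how libraries are scaled, and gene length cancels when such ratios are compared between libraries. HSD17B2 had 0.227 reads per HSD17B6 read in CMT, 22.2 in CM and 0.820 in IM. The ratio was therefore 27.1 times as large in CM as in IM (20.7 to 35.4, 95% interval from the counts) and 97.7 times smaller in CMT than in CM (75.6 to 126). CMT lay beyond IM, with a ratio 3.61 times smaller (3.01 to 4.33). Reads of HSD17B2 per HSD17B4 read were 0.0386 in CMT, 0.424 in CM and 0.0293 in IM. That ratio was 14.5 times as large in CM as in IM (12.8 to 16.3), and in CMT it was 1.32 times as large as in IM (1.14 to 1.53). These pairs were chosen after the values were seen.

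SRD5A1, which makes dihydrotestosterone from testosterone, gave 297 counts in CMT, 406 in CM and 267 in IM. The levels were 22.4 CPM (20.0 to 25.1), 21.5 CPM (19.4 to 23.7) and 16.1 CPM (14.2 to 18.2). CMT and CM overlapped and both lay above IM. The fold was 1.33 in CM against IM (1.14 to 1.56), 1.39 in CMT against IM (1.18 to 1.65) and 1.04 in CMT against CM (0.897 to 1.22), the last turning to 0.995 when libraries were scaled by their total counts. SRD5A3, another gene of the family, was at 0 counts in all 3 libraries, which allows up to 0.227 CPM in CMT, 0.159 in CM and 0.181 in IM. SRD5A2, a further gene of the family, was not found in the count table under its symbol. For both, reads counted under a numbered identifier without a symbol would be missed.

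HSD11B2 gave 7051 counts in CMT, 12241 in CM and 9595 in IM, or 533 CPM (520.4 to 545), 648 CPM (636 to 659) and 579.5 CPM (568 to 591). The 3 intervals did not overlap, with CM highest, but the differences were small. The fold was 1.12 in CM against IM (1.09 to 1.15), 0.823 in CMT against CM (0.799 to 0.847) and 0.919 in CMT against IM (0.891 to 0.948). Of 24 compared genes listed for the cells that respond to mineralocorticoids, 0 were called in any comparison, near the share over all genes. The list is not confined to genes particular to those cells. SGK1, TSC22D3 and PER1 on it are also among the receptor and response genes below. The water channel gene AQP2 stood at 139 CPM in CMT, 154 in CM and 156.5 in IM, and the sodium channel subunit SCNN1G at 115, 115 and 113 CPM. NR3C2, the mineralocorticoid receptor, was at 6.72 CPM in CMT, 5.61 in CM and 5.01 in IM. HSD11B1, also among those 24 genes, in most tissues runs the reverse reaction from cortisone to cortisol. It had 168 counts in CMT, 285 in CM and 197 in IM and was not called.

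HSD17B14, which in humans oxidises estradiol and also the sugar L-fucose, was highest in CM: 1835 counts in CMT, 3979 in CM and 2753 in IM. Its levels were 139 CPM (132 to 145), 210.5 CPM (204 to 217) and 166 CPM (160.1 to 173). They did not overlap, in the order CM, IM, CMT. The fold was 1.27 in CM against IM (1.21 to 1.33) and 0.659 in CMT against CM (0.623 to 0.696), inside 2-fold. In the Sscrofa11.1 annotation HSD17B14 overlaps PLEKHA4, which had 60, 116 and 74 counts in CMT, CM and IM. Reads in the overlap cannot be told apart, since no source used here names a strand setting.

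HSD17B11, an enzyme of lipid droplets that acts on androstanediol, had its highest level in CMT. Whether its count shares reads with its close relative HSD17B13 is not known. It gave 1041 counts in CMT, 920 in CM and 863 in IM, or 78.7 CPM (73.9 to 83.6), 48.7 CPM (45.6 to 51.9) and 52.1 CPM (48.7 to 55.7). CM and IM overlapped and CMT lay above both. CMT stood at 1.62-fold of CM (1.48 to 1.77) and 1.51-fold of IM (1.38 to 1.65), neither of them a call. Among 13 compared lipid droplet genes the calls were mixed between CMT and CM, 2 higher and 2 lower. The shares over all compared genes were 1.84% and 1.11%. PLIN2, the coat protein of droplets in most cells, was 2.62-fold higher (2.14 to 3.23), with 268 counts in CMT and 146 in CM, and the lipase gene LIPE was 3.52-fold higher (2.53 to 4.95). The lower pair were PLIN4, with 118 counts in CMT and 654 in CM, and PNPLA3, with 48 in CMT and 422 in CM; these 2 were also the 2 called higher in the CM pool relative to IM, where 0 were lower. Relative to IM, CMT had 0 calls among the 13. The median log2 fold of the list was -0.20 for CM over IM, 0.26 for CMT over CM and 0.32 for CMT over IM.

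HSD17B12 is the 3-ketoacyl-CoA reductase of fatty acid elongation in the endoplasmic reticulum, and in humans it can also reduce estrone to estradiol. It was highest in IM, with 921 counts in CMT, 1436 in CM and 1687 in IM. In CPM it stood at 69.6 (65.2 to 74.2), 76.0 (72.1 to 80.0) and 102 (97.1 to 107), so that CMT and CM overlapped below IM. The fold was 0.746 in CM against IM (0.694 to 0.800) 0.683 in CMT against IM (0.630 to 0.740) and 0.916 in CMT against CM (0.842 to 0.996). TECR, the enzyme of the last step of the same elongation cycle, gave 289.7 CPM in CMT, 279 in CM and 379.5 in IM, with folds of 0.735 in CM against IM (0.709 to 0.763) and 0.763 in CMT against IM (0.733 to 0.795). Of 11 compared elongation and desaturation genes, 0 were called in CM against IM, where 3 of 11 lay above 0 on the log2 scale, and 0 in CMT against IM, where 1 of 11 did. The desaturase gene FADS2 was the 1 called in CMT against CM, lower by 2.88-fold (2.62 to 3.16). Over all compared genes 1.11% were called lower there.

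The mitochondrial members stayed within a narrow range. HSD17B8 forms, with CBR4, the ketoacyl reductase of mitochondrial fatty acid synthesis. It gave 1404 counts in CMT, 2025 in CM and 1584 in IM, or 106 CPM (101 to 112), 107 CPM (103 to 112) and 95.7 CPM (91.0 to 100.5). CMT and CM overlapped, and the lower edge of CMT lay just above the upper edge of IM. The fold was 1.12 in CM against IM (1.05 to 1.20) and 1.11 in CMT against IM (1.03 to 1.19), neither of them a call. Scaled by total counts, CMT against IM was 1.07 (0.998 to 1.15), an interval that includes 1. CBR4 stood at 62.7 CPM in CMT, 73.7 in CM and 63.2 in IM. In that pathway 0 of 8 genes were called in any comparison, near the share over all genes (2.71%, 2.95% and 1.5% in CM against IM, CMT against CM and CMT against IM).

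HSD17B10 breaks down an isoleucine product, oxidises steroids and is a subunit of mitochondrial RNase P, which trims transfer RNA. It gave 2845 counts in CMT, 3770 in CM and 2911 in IM, or 215 CPM (207 to 223), 199 CPM (193 to 206) and 176 CPM (169 to 182). The 3 intervals did not overlap, with CMT highest and IM lowest. The fold was 1.13 in CM against IM (1.08 to 1.19), 1.08 in CMT against CM (1.03 to 1.13) and 1.22 in CMT against IM (1.16 to 1.29). Scaled by total counts, CMT against CM was 1.03 (0.978 to 1.08), an interval that includes 1. The separation of CMT from CM thus depends on the scaling. TRMT10C and KIAA0391, which code for the other RNase P subunits, were uncalled, at 72 and 27 counts in CMT, 151 and 75 in CM, and 119 and 51 in IM. Of 24 compared genes of RNase P and branched-chain amino acid breakdown, 0 were called in any comparison, again near the share over all genes.

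**Figure D3:**
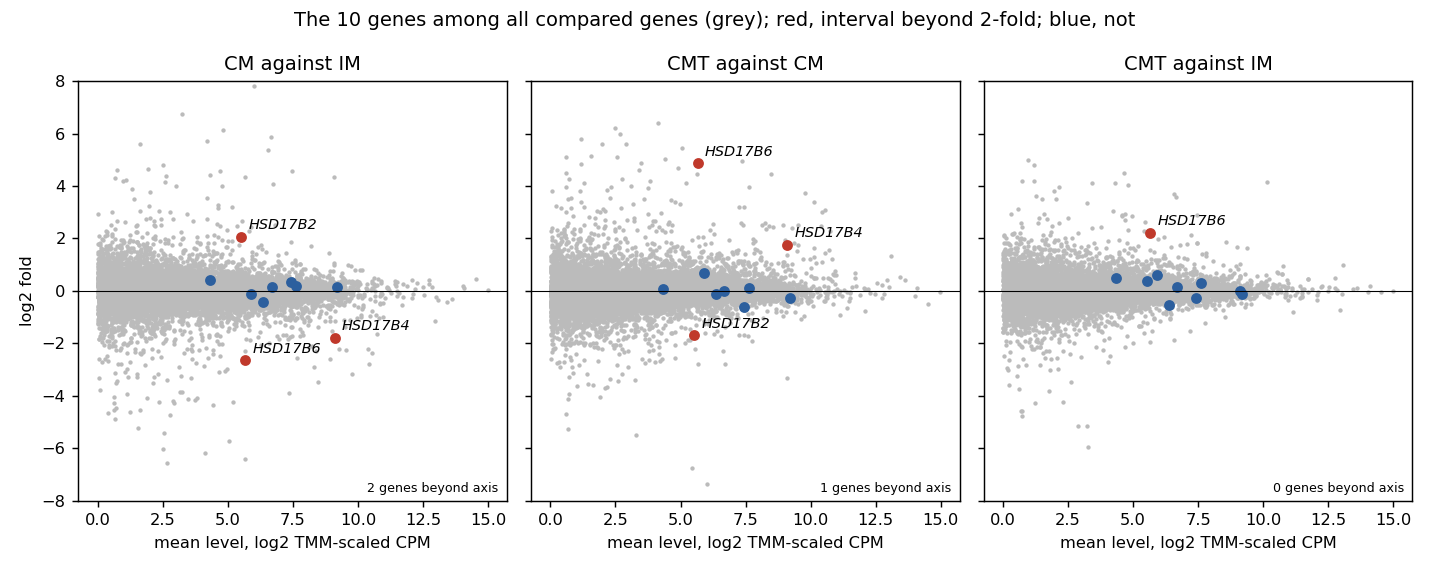
Log2 fold (vertical) against mean level in log2 TMM-scaled CPM (horizontal) for the 15472 compared genes in grey, with the 10 genes in red where the interval lies beyond 2-fold and in blue where it does not. The called genes lie towards the upper or lower edge of the grey points, while the others lie within a log2 fold of -0.60 to 0.69 in all 3 comparisons.

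Other genes of the same enzyme families held a few calls. Of 29 compared short-chain dehydrogenases and reductases outside the members, 1 was called higher in CM than in IM and 3 were called lower. The shares over all compared genes were 1.2% higher and 1.52% lower. RDH5, a retinol dehydrogenase, was higher by 5.08-fold (4.33 to 5.99), with 1038 counts in CM and 179 in IM. The lower ones were CBR3, a carbonyl reductase (3.21-fold, 2.62 to 3.95), RDH11, a retinal reductase (2.99-fold, 2.83 to 3.15), and DHRS7 (2.21-fold, 2.11 to 2.31). Relative to CM, CMT had 4 of them higher and 0 lower, beside 1.84% and 1.11% of all compared genes. CBR3 was higher by 5.90-fold (4.86 to 7.20), RDH11 by 3.03-fold (2.87 to 3.20), RDH16 by 2.77-fold (2.65 to 2.90) and DHRS7 by 2.29-fold (2.18 to 2.40).

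RDH16 is, in humans, a close relative of HSD17B6 in sequence. It gave 443 CPM in CMT, 159.7 in CM and 199 in IM. Like HSD17B6 it was higher in CMT than in IM, by 2.23-fold (2.13 to 2.33), and RDH5 was the other of the 2 called there, by 2.54-fold (2.12 to 3.06). Of all compared genes 0.905% were called higher in CMT than in IM. The CM level of RDH16 was 0.803-fold of IM (0.764 to 0.844), not a call. No source used here says how reads shared by such relatives were counted, so the levels of both are uncertain to that extent. The median log2 fold of the 29 genes was -0.02 for CM over IM, 0.05 for CMT over CM and 0.07 for CMT over IM, and the signs for CM over IM and CMT over CM turned when libraries were scaled by their total counts.

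The other 17-beta-hydroxysteroid dehydrogenases were sparse. HSD17B1, the estradiol-making enzyme of the ovary and placenta, had 28 counts in CMT, 39 in CM and 19 in IM. HSD17B3, which makes testosterone in the testis, had 2, 5 and 2, too few to compare. HSD17B7 had 64, 88 and 89 and HSD17B13 had 18, 21 and 17, in the same order of groups. Of 8 compared aldo-keto reductases and reductases related to SRD5A1, AKR1E2 was the 1 called in CM against IM, higher by 2.67-fold (2.22 to 3.22), with 475 counts in CM and 156 in IM. None of the 8 was called in CMT against CM or in CMT against IM, where AKR1E2 had 153 counts in CMT. AKR1C1, whose family reduces the 3-keto group of dihydrotestosterone, stood at 109.5 CPM in CMT, 179 in CM and 136 in IM, and close copies may share its reads.

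The enzymes at the core of steroid synthesis had few or no counts. CYP17A1, CYP19A1 and CYP19A2 had 0 counts in all 3 libraries. STAR, which brings cholesterol into mitochondria, had 13 counts in CMT, 3 in CM and 12 in IM, and HSD3B1 had 8, 17 and 14. Of the 9 genes of that list with enough counts, CYP27A1, the sterol 27-hydroxylase, was the 1 higher in CM than in IM (980 counts in CM, 94 in IM), and 0 were lower. In CMT against CM, POR, whose product passes electrons to microsomal P450 enzymes, was the 1 higher, at 2.38-fold (2.22 to 2.56), and CYP27A1 the 1 lower, at 3.09-fold (2.67 to 3.59). In CMT against IM, CYP27A1 was the 1 higher, at 2.95-fold (2.31 to 3.80). In steroid conjugation, the sulfotransferase gene SULT2A1 was the 1 called of 11 in each comparison, lower in CM than in IM and higher in CMT than in either; it had 15219 counts in CMT, 2 in CM and 5929 in IM. Among 14 receptor and response genes ESR1, the estrogen receptor alpha, was the 1 called, lower in CM than in IM and higher in CMT than in CM, at 10.6 CPM in CMT, 0.952 in CM and 15.2 in IM.

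**Figure D4:**
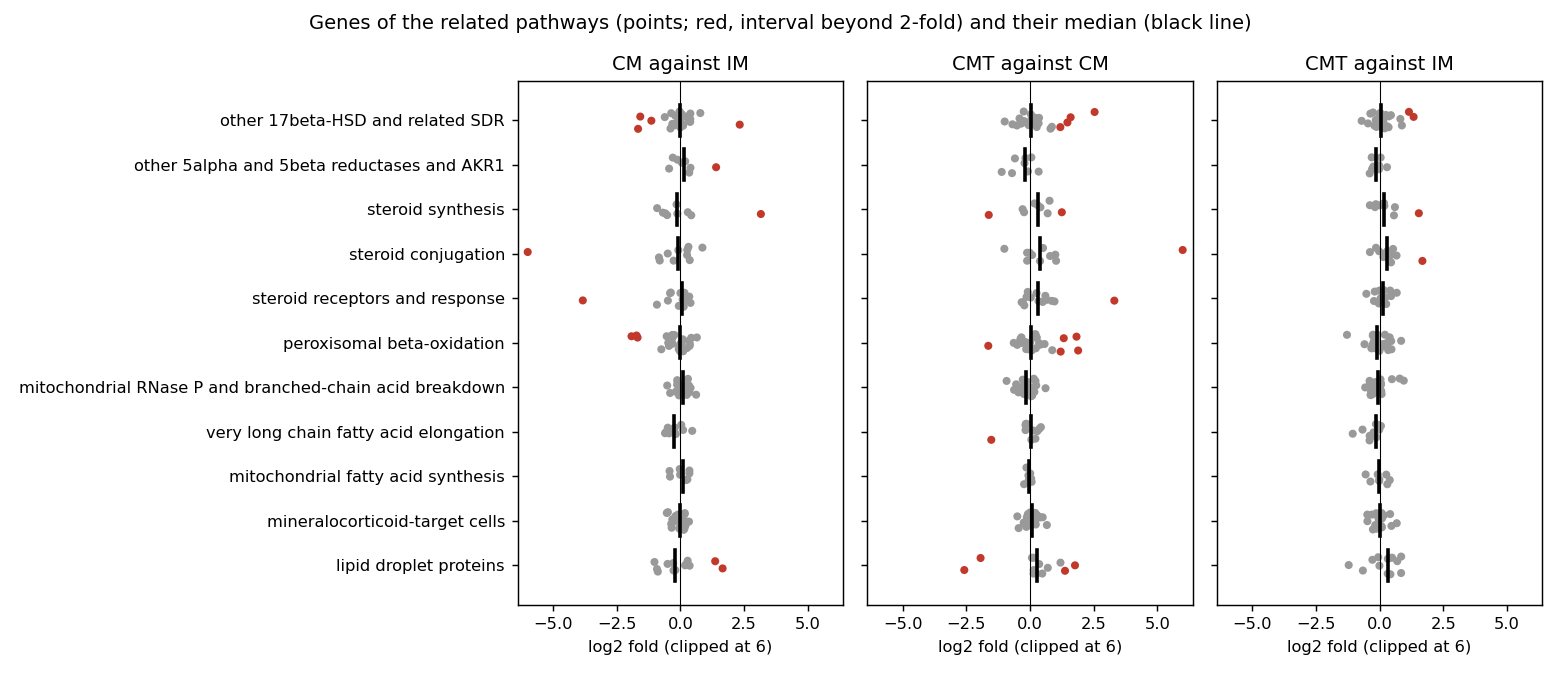
Log2 fold (horizontal, values beyond 6 in either direction drawn at the edge) of every compared gene in 11 related gene lists (rows), for the 3 comparisons; red points are calls and black lines are medians. Most lists sit around 0 with a few red points, and the peroxisomal row shows 3 genes, among them ABCD4, lower in CM than in IM against 27 uncalled. Of all compared genes 1.52% were called lower there.

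Among 30 compared genes listed for peroxisomal beta-oxidation, the pathway of HSD17B4, 3 were called lower in the CM pool relative to IM and 0 higher. The shares over all compared genes were 1.52% lower and 1.2% higher. SCP2, whose long form is the thiolase acting after HSD17B4 on branched chains, had 3947 counts in CMT, 1586 in CM and 4594 in IM. It was 3.31-fold lower in CM than in IM (3.12 to 3.50). SLC27A2, an acyl-CoA synthetase for very long chains, gave 330.5 CPM in CMT, 89.0 in CM and 286 in IM, which made CM 3.21-fold lower than IM (3.04 to 3.40). ABCD4, on the list but known for vitamin B12 transport in lysosomes, had 331 counts in CMT, 187 in CM and 626 in IM. Its level in CM was 3.82-fold below IM (3.24 to 4.52). Leaving ABCD4 aside, the genes called lower were SCP2 and SLC27A2. In CMT against CM, 4 were higher: SLC27A2 by 3.71-fold (3.51 to 3.93), SCP2 by 3.55-fold (3.35 to 3.77), ABCD4 by 2.53-fold (2.11 to 3.04) and ABCD3, a transporter of branched acyl chains, by 2.31-fold (2.14 to 2.49). The regulator PPARA was the 1 lower, with 76 counts in CMT and 343 in CM. Of all compared genes 1.84% were higher and 1.11% lower in CMT against CM. In CMT against IM 0 of 30 were called, beside 1.5% of all compared genes.

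Most of this list was not called: 27 of 30 genes in CM against IM and 25 of 30 in CMT against CM. Smaller differences in the same direction were present. ABCD3 in CM was at 0.594-fold of IM (0.550 to 0.641). HACL1 was at 0.732-fold in CM against IM (0.656 to 0.816) and 1.49-fold in CMT against CM (1.33 to 1.67). On the log2 scale 13 of 30 genes lay above 0 for CM over IM, and 19 of 30 for CMT over CM. ACOX2, the oxidase that acts before HSD17B4 on branched chains and bile acid precursors, stood at 199.8 CPM in CMT, 259.6 in CM and 217 in IM. The thiolase gene ACAA1 gave 485 CPM in CMT, 613 in CM and 482 in IM. EHHADH, the other bifunctional enzyme of peroxisomes, gave 47.0, 44.9 and 52.8 CPM in CMT, CM and IM, and the peroxisome import receptor PEX5 gave 105, 109.8 and 111 CPM. The median log2 fold over the 30 genes was -0.02 for CM over IM and 0.06 for CMT over CM, and both signs turned when libraries were scaled by their total counts.

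For each called member, the 3 genes with the nearest profile over the 3 libraries were searched among 11673 other compared genes with a symbol. Likeness was the distance between log2 levels centred on each gene's own mean, where 0 is an identical shape. A prior count of 2 was added before taking logs, which shifts the shape of genes with few counts most. For HSD17B4 these were SERPINF1, a secreted protein of the serpin family, at 0.053, KHDRBS3 at 0.083 and SCP2 at 0.087. KHDRBS3 rests on 19, 7 and 26 counts in CMT, CM and IM. For HSD17B2 they were UNC93A at 0.085, the plasma cell gene MZB1 at 0.15 and GPIHBP1 at 0.19. MZB1 had 20, 88 and 16 counts and GPIHBP1 had 10, 42 and 8 in CMT, CM and IM. For HSD17B6 the nearest were farther away, the cardiac actin gene ACTC1 at 0.71, the protease inhibitor gene SLPI at 0.88 and the lipid transporter gene MFSD2A at 0.98. With 3 libraries a shared shape is a description only.

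**Figure D5:**
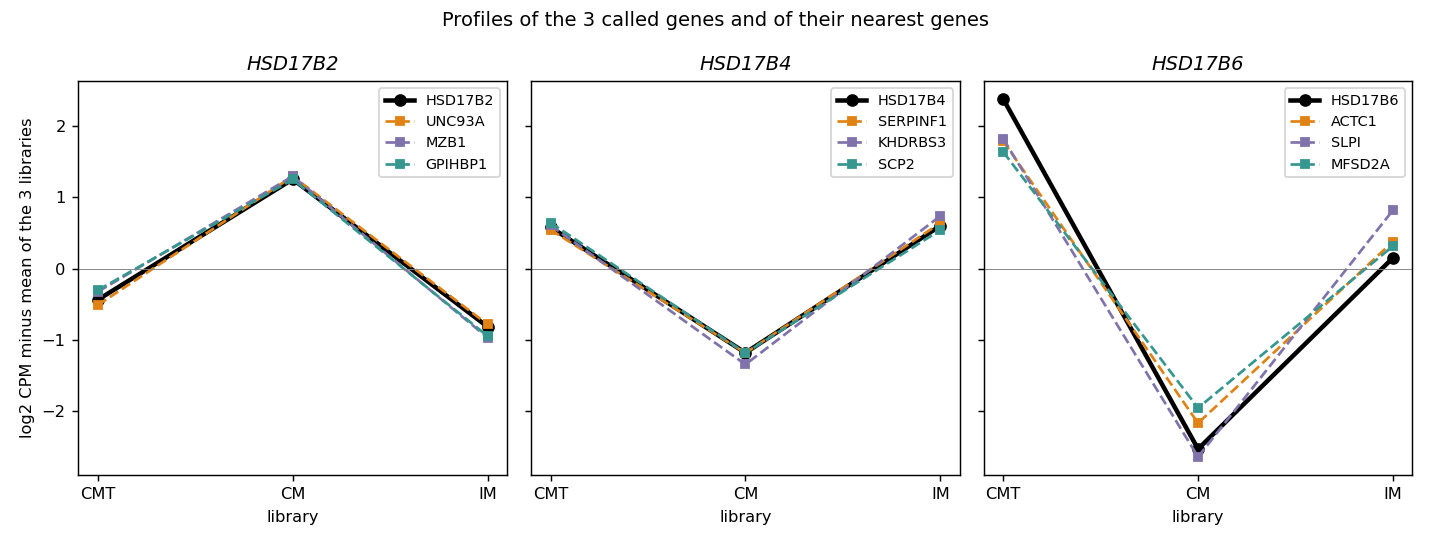
Level of the 3 called genes (black) and of the 3 genes nearest to each (coloured, dashed) in CMT, CM and IM, as log2 CPM minus the gene's mean over the libraries. The curves are drawn without the prior count of 2 used for the distances. The curves of HSD17B2 and HSD17B4 are nearly covered by their neighbours, whereas HSD17B6 runs higher in CMT than ACTC1, SLPI and MFSD2A, its nearest at a distance of 0.71 or more.

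Markers of other tissues were read beside these results. HSD17B6 and HSD17B2 are also liver genes in mammals. The 10 liver markers summed to 678 CPM in CMT, 359 in CM and 787 in IM, most of it from the transferrin gene TF; without TF the other 9 summed to 131 CPM in CMT, 73.8 in CM and 161 in IM. APOB had 5, 0 and 1 counts and SERPINA1 0, 1 and 3 in CMT, CM and IM. Of 7 compared liver markers 3 were lower in CM than in IM (ALB, AFP and TF) and 2 higher (TTR and APOA1). Relative to CM, CMT had ALB, AFP and TTR higher and 0 lower. Relative to IM, CMT had TTR higher by 7.29-fold (6.06 to 8.83) and ALB lower by 3.86-fold (3.47 to 4.31). ALB had 404 counts in CMT, 24 in CM and 1952 in IM, and TTR had 775, 489 and 133. Of 12 listed adrenal cortex markers 8 were in the table. Without SULT2A1 the other 7 summed to 1.74 CPM in CMT, 1.48 in CM and 1.87 in IM, and CYP17A1 and MRAP were at 0. Markers of loop of Henle, distal tubule, podocyte, endothelium and stroma had 0 calls in every comparison; the other 2 lists each held 1 called gene. Of 5 leukocyte markers, which summed to 61.1 CPM in CMT, 62.2 in CM and 51.2 in IM, CD79A was lower in CMT than in CM. Of 5 intercalated cell markers, which summed to 581 CPM in CMT, 863 in CM and 589.5 in IM, SLC26A4 was lower in CM than in IM and higher in CMT than in CM. Most of that sum came from ATP6V1B1, at 413 CPM in CMT, 727 in CM and 433 in IM. In the same order SLC4A1 stood at 83.5, 68.7 and 64.0 CPM, ATP6V0D2 at 38.0, 43.4 and 35.2, and FOXI1 at 16.5, 13.8 and 15.3. The part of liver-type, leukocyte or intercalated cell RNA in the differences of the 3 called enzymes was not tested.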

How the data were processed

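Total RNA of kidney was extracted with TRIzol, pooled by group and made into libraries with an Ion Torrent total RNA kit, per the labels' protocols; the series' design text names an Illumina sequencer, and the platform was not settled here. The authors deposited unnormalized whole-number counts for each gene, and FastQC is the only tool in the submitters' processing notes. The aligner, counter, strand setting, build and annotation are not given in the sources used here. Coordinates are therefore left out. 1 unnamed column with 4 values was not used. Protein and promoter sequences were not analysed here.

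Library sizes were adjusted with TMM (edgeR 4.0.16, R 4.3.3; no edgeR test, as there is no replicate). Genes with a mean of at least 1 CPM were compared. Folds are ratios of scaled counts with Clopper-Pearson 95% intervals (SciPy 1.17.1), which cover counting error only, as do the Poisson intervals of levels, the log-normal intervals of ratios between 2 genes and the floor of 3 counts for a gene at 0. Log2 folds used a prior count of 2. Of 19902 numbered identifiers, 1556 received a symbol from the RefSeq table of Sscrofa11.1.

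The members, the 11 pathway lists and the 10 marker lists were chosen with earlier results of these data known. Named genes are all members, up to 4 called genes per list and direction, and the 3 nearest profiles of called members; further list genes were named after their values were seen. Alternatives were other scalings (total counts, DESeq2 1.42.0 size factors, upper quartiles, totals without ribosomal and mitochondrial genes), other filters, thinning, other call thresholds, a 99% interval and other prior counts.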

Additional observations from a re-analysis of the deposited data

How the results depend on the processing

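The counts of called members (3, 3 and 1 in CM against IM, CMT against CM and CMT against IM) stayed within 1.5 times under all 10 alternatives for folds and counts, and no called fold changed sign. HSD17B2 in CMT against CM (0.309-fold of CM) was the 1 called fold lost, when the interval had to lie beyond 3-fold. Over other scalings and thinning, HSD17B6 was 5.41- to 6.44-fold lower in CM than in IM and 25.6- to 30.4-fold higher in CMT than in CM, HSD17B2 3.22- to 3.40-fold lower in CMT than in CM, and HSD17B4 3.39- to 3.47-fold lower in CM than in IM. Counts over all genes moved by construction of the filter or threshold. For CM against IM, CMT against CM and CMT against IM they were 420, 456 and 232 in the main analysis, 271, 300 and 132 with a mean of at least 5 CPM, 963, 974 and 579 beyond 1.5-fold, and 199, 196 and 90 beyond 3-fold. With total counts, HSD11B2 in CMT stood at 0.784-fold of CM and 0.889-fold of IM, and HSD17B4 in CMT at 3.23-fold of CM, still a call, and 0.954-fold of IM, all outside their main intervals. No paired analysis was possible because each group has 1 library, and for that reason no library could be left out. The 2-fold line is the chosen call threshold and not a measured limit. Every difference, of any size, is beyond what 3 pools can show when read as one between groups of pigs.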

Other observations

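The genes next to the members on the chromosome were read from the RefSeq annotation of Sscrofa11.1, in which 8 of the 10 members had an entry under their symbol and HSD17B6 and HSD17B11 had none, so their neighbours were not read; this look was chosen after the members' values were seen. The nearest compared protein-coding gene on each side gave 16 neighbours. In CM against IM 0 of them were higher and 1 was lower, in CMT against CM 1 was higher and 0 lower, and in CMT against IM 0 were called. The shares of all compared genes called in either direction were 2.71%, 2.95% and 1.5% in the same order. The neighbour called in both was TNFAIP8, a regulator of cell death that lies next to HSD17B4. It had 953 counts in CMT, 484 in CM and 1201 in IM. It was 2.83-fold lower in CM than in IM (2.55 to 3.15) and 2.81-fold higher in CMT than in CM (2.52 to 3.14), and CMT stood at 0.993-fold of IM (0.911 to 1.08). SRFBP1, the nearest compared gene on the other side of HSD17B4, had 75 counts in CMT, 85 in CM and 88 in IM and was uncalled. It is not adjacent: 4 protein-coding genes between it and HSD17B4 were passed over as not compared. SDR42E1, an enzyme of the same superfamily beside HSD17B2, had 159 counts in CMT, 325 in CM and 238 in IM and was uncalled as well.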
